A study of Cairina moschata with 9 samples.

Results

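The most abundant transcripts of Muscovy duck abdominal fat were chosen by their FPKM: the mean over the 9 libraries had to reach 1000, and no library could be at 0. FPKM relates the sequenced fragments of a gene to its transcript length and to the mapped fragments of the library. Of the 14814 genes in the table, 151 met this rule, or 1.02%. They are numbered below from 1 to 151 in descending order of mean FPKM. The rule used the levels themselves, so levels, shares and places in the table are given as a description. It used no difference between ages, but a gene may have reached the mean through the ages at which it was high: 15 of the 151 were under 1000 FPKM in every 12-week library, 7 in every 35-week library and 5 in every 66-week library.

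RNA was sequenced from the abdominal fat of Muscovy ducks (Cairina moschata) of 12, 35 and 66 weeks of age, with 3 birds of normal body weight per age and 1 library per bird. No treatment or genotype is named, and the sex of the birds is not given. The labels give 1 lane code per age (3 at 12 weeks, 4 at 35 weeks and 5 at 66 weeks), so in every comparison below the lane and the age cannot be told apart.

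Abdominal fat is the main internal fat depot of ducks and other poultry. Its adipocytes store triglyceride, and in birds much of the stored fatty acid is made in the liver and carried to the fat in lipoproteins. In vertebrate tissues the most abundant messenger RNAs commonly include those for ribosomal proteins, translation factors and mitochondrial proteins, and in fat also those for proteins that bind and store lipid. The files do not pair the gene identifiers with names, so no function can be given to any of the 151 genes, and the tissue label could not be checked against marker genes. Changes in cell make-up and changes in RNA per cell cannot be told apart in whole-tissue RNA.

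The number of fragments behind each value is not known. The value of a single fragment, read from the lowest values of each gene, gave relative depths of 0.892 to 1.284 with 1 as the mean of the libraries, and these ranges overlapped between ages. Further scaling between libraries, if any was made, would enter these ratios. In 15 other genes whose mean reached 1000 FPKM, 1 library alone was above 0, at 11115 to 50337 FPKM. A value of that size can therefore stand in a single library beside 0 in all others. Of the 9 libraries, 12-week replicate 3 stood farthest apart within its age: in 25 of the 151 genes it lay more than 2-fold outside both other 12-week libraries, in 19 below and in 6 above. For the other 8 libraries this count was 2 to 11, and counts of calls are given with and without that library.

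The 151 genes held more than 50% of the summed FPKM in every library. Their share was 59.5%, 59.1% and 54.2% in the 12-week libraries, 60.0%, 67.9% and 62.6% in the 35-week libraries and 67.7%, 62.6% and 67.1% in the 66-week libraries. All 35-week and all 66-week libraries lay above the 12-week libraries, and the 35-week and 66-week libraries overlapped. The means were 57.6% ± 2.95 at 12 weeks, 63.5% ± 4.02 at 35 weeks and 65.8% ± 2.77 at 66 weeks (SD, n = 3 each). Genes 1 to 10 alone held 31.6% ± 4.25, 36.6% ± 6.54 and 35.7% ± 2.02 at the 3 ages in the same order (SD, n = 3 each), and genes 11 to 151 held 25.9% ± 1.76, 26.9% ± 4.06 and 30.1% ± 2.90. For genes 1 to 10 the 66-week libraries overlapped with both other ages. For genes 11 to 151 they overlapped with the 35-week libraries and lay above all 12-week libraries.

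**Figure D1:**
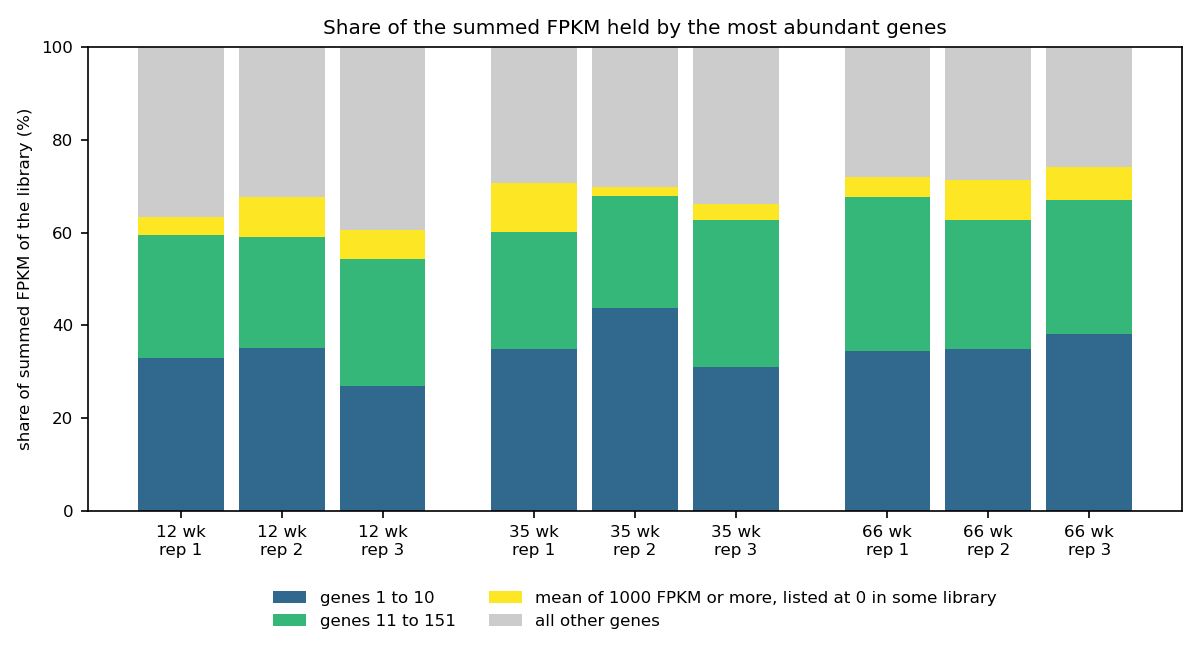
Share of the summed FPKM of each library, in percent, held by genes 1 to 10, by genes 11 to 151, by the genes whose mean reached 1000 FPKM but that were listed at 0 in some library, and by all other genes. Each bar is 1 library; the 151 genes together held between 54.2% and 67.9%.

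A few genes made up much of the summed FPKM of a library. The next counts were made over all genes, those outside the 151 included. The fewest genes that together held 50% of the summed FPKM numbered 41, 24 and 54 in the 12-week libraries, 20, 16 and 36 in the 35-week libraries, and 26, 24 and 20 in the 66-week libraries. The number was highest in 12-week replicate 3. Among the 151, the single highest gene was gene 1 in all 12-week and all 66-week libraries and gene 2 in all 35-week libraries.

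Gene 1 stood at 125911, 200791 and 65236 FPKM at 12, 95899, 56201 and 82910 FPKM at 35 and 208459, 118072 and 223296 FPKM at 66 weeks. It took 9.69% ± 4.16, 4.87% ± 1.18 and 9.24% ± 2.61 of the summed FPKM at the 3 ages in that order (SD, n = 3 each). Every 66-week library lay above every 35-week library, while the 12-week values lay among both. The log2 fold change of 66 against 35 weeks was 1.21, with an adjusted p of 0.206 (limma), so the difference did not pass the threshold of 0.05.

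Gene 2 showed the opposite course, with its highest values at 35 weeks. Its values were 21938, 33298 and 42163 FPKM at 12, 122401, 213735 and 120532 FPKM at 35 and 46994, 100431 and 90025 FPKM at 66 weeks. No 2 ages overlapped: the 35-week libraries were highest and the 12-week libraries lowest. It held 2.50% ± 0.885 of the summed FPKM at 12, 9.51% ± 3.38 at 35 and 4.0% ± 1.42 at 66 weeks (SD, n = 3 each). The log2 fold change was 2.23 for 35 against 12 weeks (limma, adjusted p 0.229) and -0.96 for 66 against 35 weeks (limma, adjusted p 0.237), and neither passed.

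Gene 3 was the steadiest of the first 4 between ages. It averaged 75423 ± 32464 FPKM at 12, 91775 ± 26567 FPKM at 35 and 85982 ± 4397 FPKM at 66 weeks (SD, n = 3 each), and all pairs of ages overlapped. Gene 4 varied widely between birds of 1 age, with 69797, 11310 and 48870 FPKM at 12, 71202, 157699 and 25360 FPKM at 35 and 56582, 105128 and 142953 FPKM at 66 weeks. Its place in a library ran from 2 to 19, so its position near the top rests on some birds more than on others.

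The means of genes 4, 5, 6, 9 and 10 were higher at each later age. Gene 9 was the only one of the first 10 whose libraries were separate and ascending at every step. It stood at 14302, 11507 and 12470 FPKM at 12, 17386, 20202 and 25285 FPKM at 35 and 46470, 27242 and 34294 FPKM at 66 weeks. Its log2 fold change of 66 against 12 weeks was 1.47, with an adjusted p of 0.0952 (limma). Gene 5 had 16239, 38173 and 32000 FPKM at 12, 49004, 38629 and 29007 FPKM at 35 and 67715, 74301 and 85939 FPKM at 66 weeks. Its 66-week libraries lay above all others, and the other ages overlapped. Gene 7 was lowest at 35 weeks by its mean, at 34829 ± 18804, 18976 ± 6951 and 38529 ± 9038 FPKM at 12, 35 and 66 weeks, and gene 8 highest, at 17194 ± 1516, 36631 ± 12365 and 22917 ± 11092 FPKM (SD, n = 3 each). Over the first 10 genes the moderated F test of limma across the 3 ages gave adjusted p-values of 0.0907 to 0.811.

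**Figure D2:**
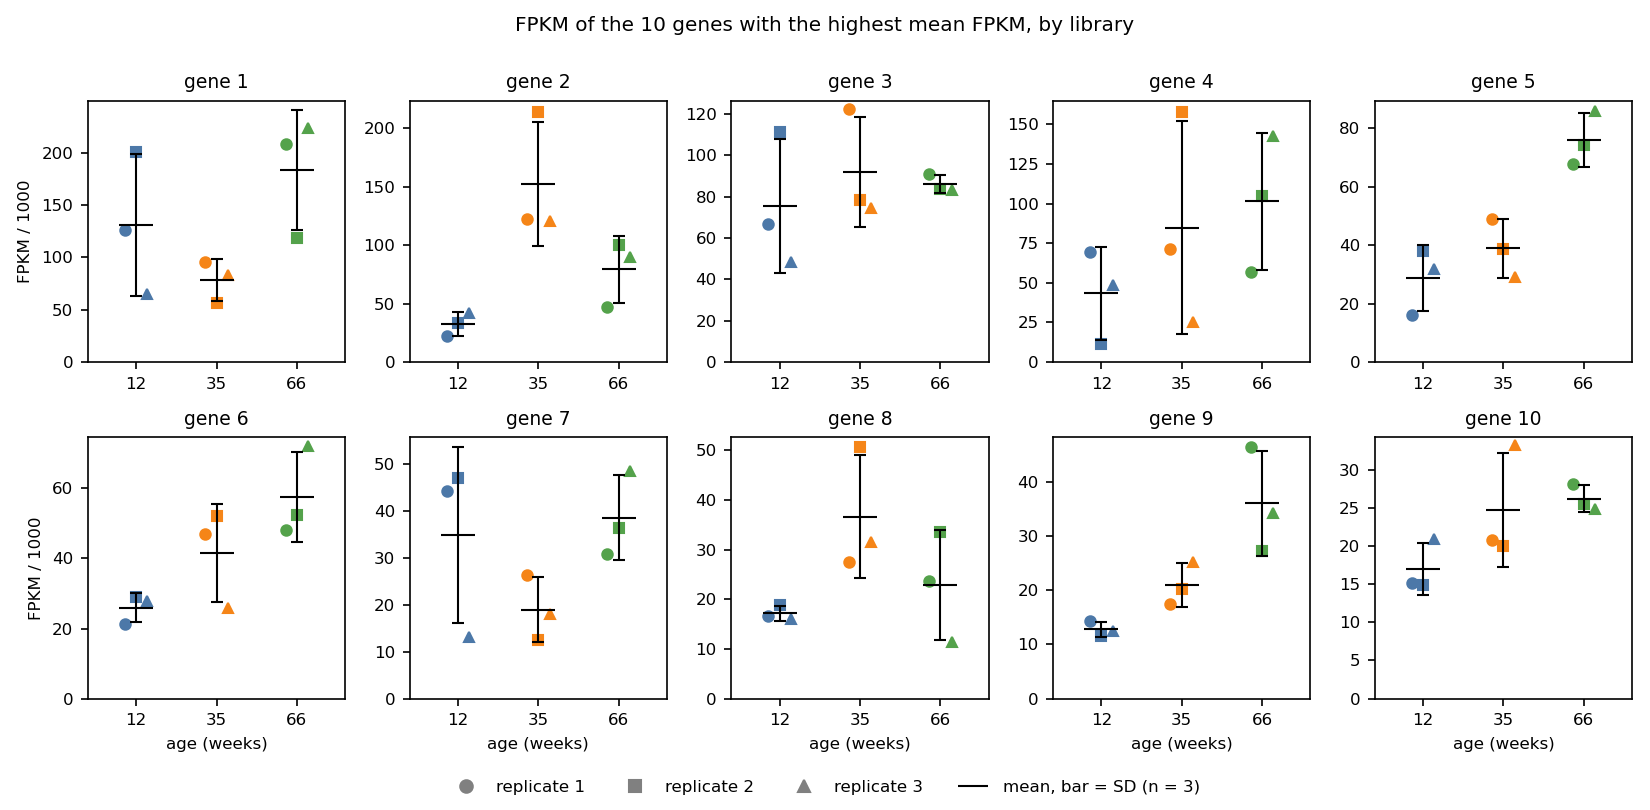
FPKM, in units of 1000, of genes 1 to 10 in each library by age in weeks; symbols mark the replicate, and the black line and bar show the mean and SD of 3 libraries. Gene 1 leads at 12 and 66 weeks and gene 2 at 35 weeks, and gene 4 spreads from 11310 to 157699 FPKM.

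Place among all genes of the table, with 1 as the highest, does not depend on a scaling that multiplies a whole library where it is taken within that library. Places by the means of an age can depend on it, since such a scaling changes the weight of a library in the mean. By the means of each age, 128 of the 151 genes were among the 151 highest of the table at 12 weeks, 127 at 35 weeks and 122 at 66 weeks, and 95 were there at all 3 ages. In all 9 libraries separately it was 76. The other places were taken by genes outside the rule, among them some of the 35 genes that reached a mean of 1000 FPKM but were listed at 0 in some library. Of the first 10 genes, 6 were in the top 10 at every age, and of the first 20, 14 were in the top 20.

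Many genes exchanged places between ages. Across the 151 genes, Spearman's rho of the age means was 0.839 for 35 against 12 weeks, 0.777 for 66 against 35 weeks and 0.725 for 66 against 12 weeks. These are descriptions across genes, which are not independent replicates, and the 3 values share libraries. A place that moved by more than 2-fold was seen in 14 genes from 12 to 35 weeks (5 nearer the top and 9 farther), in 23 from 35 to 66 weeks (10 and 13) and in 15 from 12 to 66 weeks (10 and 5).

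The narrowest range of places, relative to its median, belonged to gene 103. It held places 117, 116 and 111 at 12 weeks, 126, 122 and 123 at 35 weeks, and 118, 108 and 124 at 66 weeks. Its level was 1130, 1209 and 1263 FPKM at 12, 1258, 1242 and 1407 FPKM at 35 and 1706, 1754 and 1720 FPKM at 66 weeks. The FPKM of gene 103 was thus above all others in the 66-week libraries, while its place overlapped between 66 weeks and both other ages. Genes 113 and 133 had the next smallest ranges, with places of 108 to 143 and 125 to 166. Among the first 20, gene 17, singled out after its values were seen, held places 16 to 21 in all libraries and 0.777%, 0.774% and 0.779% of the summed FPKM at 12, 35 and 66 weeks.

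Gains and losses of place are ordered, here and below, by the ratio of the places by age means, not by the number of places. Gene 25 was among the 3 largest gains of place at 66 weeks against either other age. By age means it was at place 40 at 12 weeks, 58 at 35 weeks and 16 at 66 weeks. Its values were 5896, 4636 and 1077 FPKM at 12, 4388, 2117 and 2062 FPKM at 35 and 14712, 12380 and 19038 FPKM at 66 weeks, and the 66-week libraries lay above all others. Its log2 fold change of 66 against 35 weeks, 2.50 ± 0.63 (SE), was the highest of the set, but the adjusted p was 0.0685 (limma). The largest gain at 66 against 12 weeks was that of gene 57, at places 185, 95 and 53 in order of age. It had 650, 1346 and 348 FPKM at 12, 1954, 1844 and 1362 FPKM at 35 and 3679, 3465 and 6206 FPKM at 66 weeks, with no overlap between any 2 ages. Its log2 fold change of 66 against 12 weeks was 2.67 ± 0.47 (SE), with an adjusted p of 0.0711 (limma). Gene 97 came after genes 57 and 25, but its 3 ages overlapped, and at 35 weeks it ran from 302 to 2775 FPKM.

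Genes 125, 139 and 135 had the largest losses of place at 66 against 12 weeks. Gene 125 stood at 192, 2559 and 3093 FPKM at 12, 93.8, 98.8 and 4044 FPKM at 35 and 191, 114 and 184 FPKM at 66 weeks, and its places by age means were 70, 115 and 816. Gene 139 had 185, 137 and 5179 FPKM at 12, 464, 2116 and 801 FPKM at 35 and 268, 329 and 239 FPKM at 66 weeks. Both genes were above 1000 FPKM in a few birds only, and their SDs of log2 FPKM within an age, up to 3.11 and 2.91, were the largest of the 151. Gene 86 followed, with 1229, 474 and 8955 FPKM at 66 weeks. Gene 135 had 599, 558 and 481 FPKM at 66 weeks, against 1579, 961 and 1694 FPKM at 12 weeks, with no overlap. At 66 against 35 weeks the 3 largest losses, as a ratio of places, were those of genes 125, 16 and 2. Gene 2 went from place 1 to place 4 only. Genes 16 and 2 were high in every 35-week library.

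**Figure D3:**
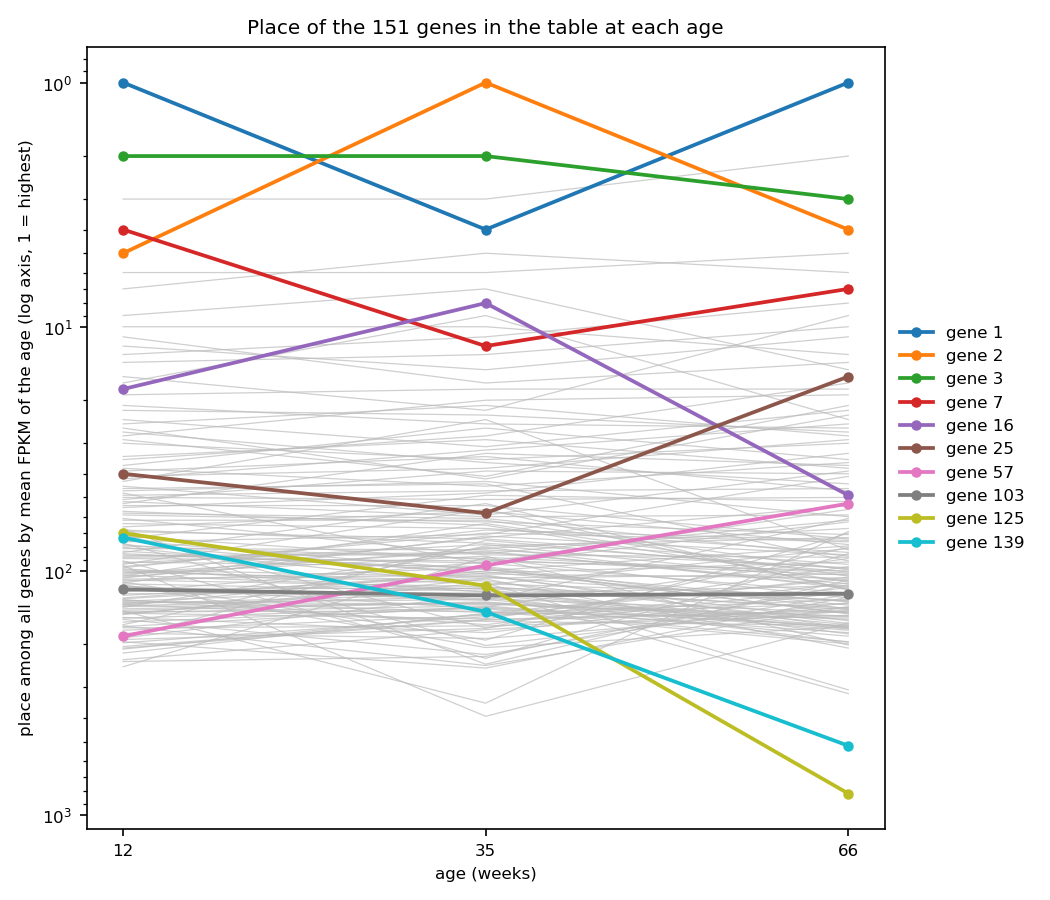
Place of each of the 151 genes among all genes of the table at 12, 35 and 66 weeks, by the mean FPKM of the age, on a log axis with 1 at the top; 10 genes are drawn in colour. Genes 1 and 2 exchange the first place, gene 16 falls to place 49 at 66 weeks against 8 at 35 weeks, and gene 103 holds places 119 to 126.

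Change with age was tested in 1 limma fit to log2(FPKM + 1) of the 11491 genes whose mean reached 1 FPKM, with p-values adjusted over all of them. All 151 genes passed that filter, as the rule for their choice implies. Between 35 and 12 weeks, 0 of the 151 were called in either direction, where 0.0174% of all tested genes were called higher and 0.0% lower at 35 weeks. At an unadjusted p under 0.05, limma gave 25 of the 151 higher, against 8.09% of all tested genes, and 1 lower, against 4.09%. The 35-week libraries all lay above the 12-week libraries in 36 of the 151 genes, against 9.96% of all tested genes, and all below in 0, against 6.62%. By place, 17 of the 151 were nearer the top in every 35-week than in every 12-week library, against 7.97% of all tested genes, and 7 were farther from it, against 9.77%.

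Among those 36, genes 2, 16 and 83 had the highest log2 fold changes, at 2.23, 1.48 and 1.36, and none passed (limma, adjusted p 0.229, 0.273 and 0.427). Gene 83 stood at 1243, 1700 and 3319 FPKM at 35 weeks, against 832, 570 and 868 FPKM at 12 weeks. The smallest changes among the 36 were 0.27 in gene 111, 0.33 in gene 144 and 0.34 in gene 36. Without 12-week replicate 3, 4 of the 151 (2.65%) were called higher and 2 (1.32%) lower at 35 weeks, close to the 2.76% and 1.25% of all tested genes called in that fit. With any other single library left out, 0 were called.

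Between 66 and 35 weeks, 3 of the 151 genes were called. ENSAPLG00000007205 (gene 16) was lower at 66 weeks, with 4885, 5105 and 4587 FPKM, against 22359, 23626 and 37958 FPKM at 35 weeks. At 12 weeks it ranged from 6069 to 18528 FPKM, the highest of these in replicate 3. Its log2 fold change was -2.48 ± 0.42 (SE), with an adjusted p of 0.0337 (limma). Its share of the summed FPKM was 0.248% at 66 weeks, against 1.77% at 35 weeks, and its places were 52, 43 and 56 at 66 weeks, against 13, 8 and 4 at 35 weeks.

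ENSAPLG00000001648 (gene 26) was higher at 66 weeks, with 13623, 11134 and 12349 FPKM, against 5088, 3634 and 3987 FPKM at 35 weeks, and 3269 to 7282 FPKM at 12 weeks. The 66-week libraries lay above all others. Its log2 fold change was 1.56 ± 0.31 (SE), with an adjusted p of 0.0439 (limma). Gene 73 was higher as well, at 2843, 2409 and 2769 FPKM at 66 weeks, against 1347, 1395 and 1596 FPKM at 35 weeks (log2 fold change 0.89 ± 0.18 (SE), limma adjusted p 0.0442). Genes 26 and 73 also stood nearer the top of the table in every 66-week library than in every 35-week library.

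The background for these calls was 1.13% of all tested genes higher and 2.38% lower at 66 weeks, beside 1.32% (2 genes) and 0.662% (1 gene) of the 151. The 66-week libraries lay above all 35-week libraries in 53 of the 151, against 18.0% of all tested genes, and below in 10, against 18.9%. By place in the table, 23 of the 151 were nearer the top in every 66-week than in every 35-week library, against 19.5% of all tested genes, and 35 were farther from it, against 19.0%. All 3 calls were lost without any 1 of the 6 libraries compared. Without 12-week replicate 3, which enters through the shared spread, 17 (11.3%) were higher and 3 (1.99%) lower, against 5.11% and 8.06% of all tested genes in that fit, and all 3 genes were still called. Without 12-week replicate 1 gene 73 was lost (limma, adjusted p 0.0617), and without 12-week replicate 2 gene 26 was lost (limma, adjusted p 0.052) and gene 129 called.

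Genes 14 and 75 had larger fold changes than genes 26 and 73, with larger standard errors, and did not pass. Gene 14 had 22801, 33995 and 46615 FPKM at 66 weeks, against 13064, 6657 and 4698 FPKM at 35 weeks (log2 fold change 2.16 ± 0.59 (SE), limma adjusted p 0.0784). Gene 75 had 2505, 3469 and 4279 FPKM at 66 weeks, against 1402, 667 and 498 FPKM at 35 weeks (log2 fold change 2.1 ± 0.57 (SE), limma adjusted p 0.0781). Genes 38 and 139 were on the low side and did not pass either. Gene 38 had 2883, 2193 and 2916 FPKM at 66 weeks, against 5523, 7171 and 11154 FPKM at 35 weeks (log2 fold change -1.53, limma adjusted p 0.158). Gene 139 had a log2 fold change of -1.74 (limma, adjusted p 0.415). Libraries of the later and the earlier age were separate in each of these 4 genes.

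Between 66 and 12 weeks, 5 of the 151 genes were called higher and 0 lower, or 3.31% and 0.0%, where 0.278% of all tested genes were called higher and 0.087% lower. Genes 146, 128 and 136, 3 of these 5, were under 1000 FPKM in every 12-week library and reached the mean of 1000 through the later ages, so nothing is read from how the share of the 151 stands to that of all genes. Of the 81 genes at or above 1000 FPKM in every library, 2 were called higher (genes 60 and 61) and 0 lower. At an unadjusted p under 0.05, limma gave 65 of the 151 higher, against 10.2% of all tested genes, and 2 lower, against 6.67%. In all 5 the mean was higher at each later age, and the 35-week libraries lay above the 12-week ones. Their log2 fold changes were between 1.06 and 1.48, below the 2.67 of gene 57, whose standard error was larger.

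ENSAPLG00000001659 (gene 60) led them, with 4175, 2840 and 3756 FPKM at 66 weeks, against 1069, 1301 and 1463 FPKM at 12 weeks. It stood at 1932, 1763 and 1963 FPKM at 35 weeks, and no 2 ages overlapped. Its log2 fold change of 66 against 12 weeks was 1.48 ± 0.20 (SE), with an adjusted p of 0.0382 (limma), and its share was 0.182% at 66 weeks, against 0.0981% at 12 weeks. Gene 146 had 1522, 1551 and 1563 FPKM at 66 weeks, against 603, 540 and 754 FPKM at 12 weeks (log2 fold change 1.30 ± 0.17 (SE), limma adjusted p 0.0382). Both genes were also called by the F test over the 3 ages (limma, adjusted p 0.0416 and 0.0390), 2 of the 151 or 1.32%, against 0.94% of all tested genes.

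Gene 128 had 1535, 1537 and 1867 FPKM at 66 weeks, against 551, 668 and 846 FPKM at 12 weeks (log2 fold change 1.27 ± 0.19 (SE), limma adjusted p 0.0483). Gene 136 had 1641, 1581 and 1325 FPKM at 66 weeks, against 591, 738 and 807 FPKM at 12 weeks (log2 fold change 1.09 ± 0.17 (SE), limma adjusted p 0.0491). Gene 61 had 3101, 3196 and 2656 FPKM at 66 weeks, against 1288, 1533 and 1460 FPKM at 12 weeks (log2 fold change 1.06 ± 0.16 (SE), limma adjusted p 0.0477). All 5 genes were nearer the top of the table in every 66-week library than in every 12-week library. Without 12-week replicate 3, gene 146 alone of the 5 was still called (limma, adjusted p 0.0334), the other 4 had adjusted p-values of 0.0535 to 0.0746, and gene 68 was called in addition. That made 2 higher (1.32%) and 0 lower, against 0.096% and 0.0262% of all tested genes in that fit. Without any 1 of the other libraries, the 35-week libraries included, 0 were called. The 2 calls of the F test became 23 (15.2%) without 12-week replicate 3, where 10% of all tested genes were called, 1 without 12-week replicate 2 and 0 without any 1 of the other libraries.

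**Figure D4:**
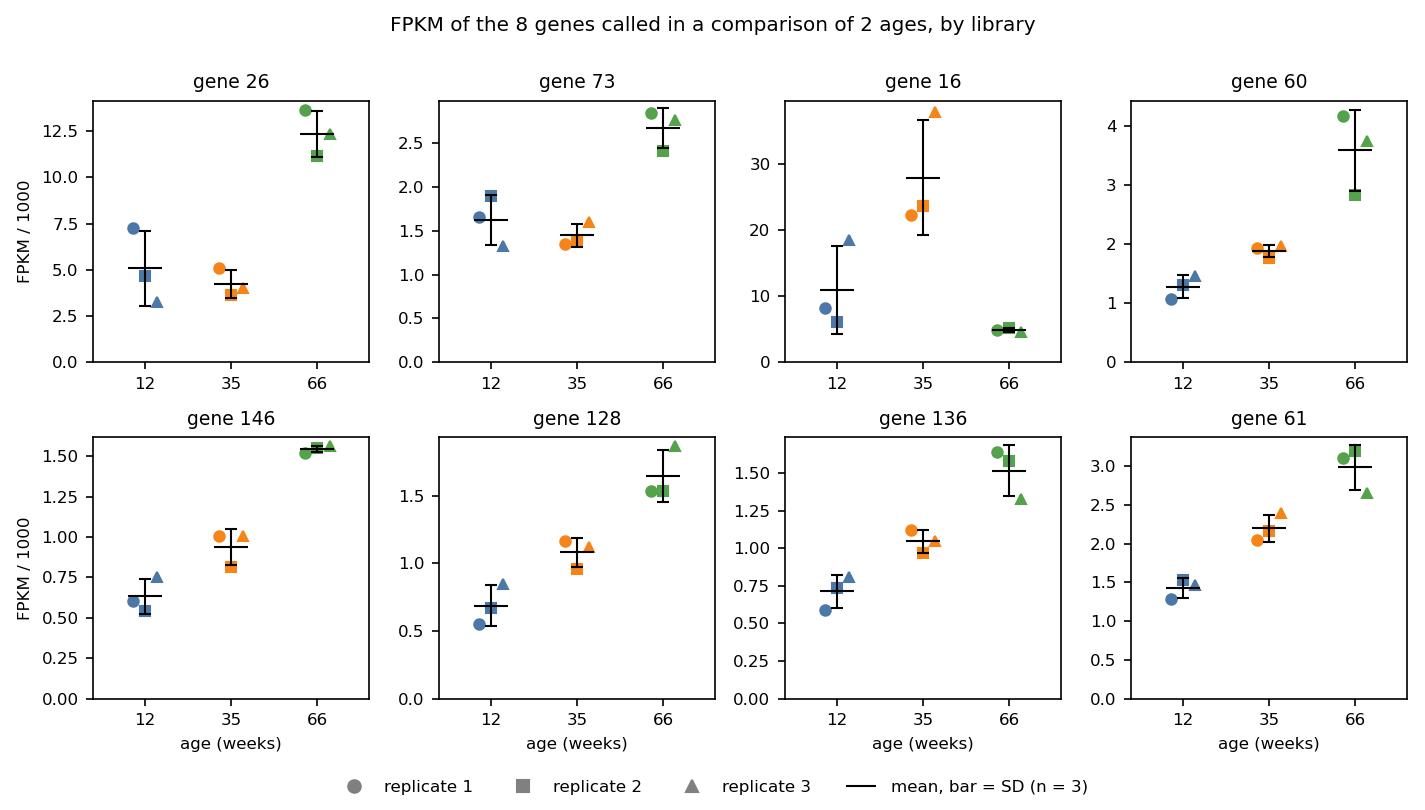
FPKM, in units of 1000, of the 8 genes called in a comparison of 2 ages, in each library by age in weeks; symbols mark the replicate, and the black line and bar show the mean and SD of 3 libraries. Gene 16 is lowest at 66 weeks, and the other 7 genes are highest there.

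Fold changes of the 151 genes were more often positive than those of all tested genes in each comparison of the deposited FPKM. Their median log2 fold change was 0.25 for 35 against 12 weeks, 0.32 for 66 against 35 weeks and 0.58 for 66 against 12 weeks, beside 0.02, 0.02 and 0.03 for all tested genes. The fold change was positive in 117, 107 and 132 of the 151 in these comparisons, or 77.5%, 70.9% and 87.4%, beside 52.9%, 51.8% and 53.2% of all tested genes. The 66-week libraries all lay above the 12-week libraries in 82 of the 151, against 13.3% of all tested genes, and below in 3, against 9.77%. By age means, 77 of the 151 were higher at each later age, 38 peaked at 35 weeks, 30 were lowest at 35 weeks and 6 were lower at each later age. These were 51.0%, 25.2%, 19.9% and 3.97%, beside 17.3%, 34.4%, 35.2% and 13.2% of all tested genes. No test was made for the group. A gene could reach the mean of 1000 FPKM through the ages at which it was high: 15 of the 151 were under 1000 FPKM in every 12-week library, against 5 in every 66-week library. Nothing is therefore read from how the shares of the 151 stand to those of all genes, here or in the comparisons above.

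The median differed along the ranks. For 66 against 12 weeks the median log2 fold change was 0.89 in genes 1 to 10, all 10 of them positive, 0.88 in genes 11 to 50, with 37 of 40 positive, and 0.37 in genes 51 to 151, with 85 of 101 positive. The ranks come from the mean over the same libraries, so a high 66-week value raised both the rank and this fold change. Nothing is therefore read from the order of these medians. By place in the table, 21 of the 151 were nearer the top in every 66-week than in every 12-week library, against 10.8% of all tested genes, and 32 were farther from it, against 12.9%. These genes held most of the 151 highest places by age means, with 128, 127 and 122 of them there at 12, 35 and 66 weeks. Single genes moved both ways, and whether the room left nearer the top bears on these counts was not tested. By age means, 66 were nearer the top at 66 than at 12 weeks and 81 were farther from it. Nothing about the change in FPKM is read from place.

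**Figure D5:**
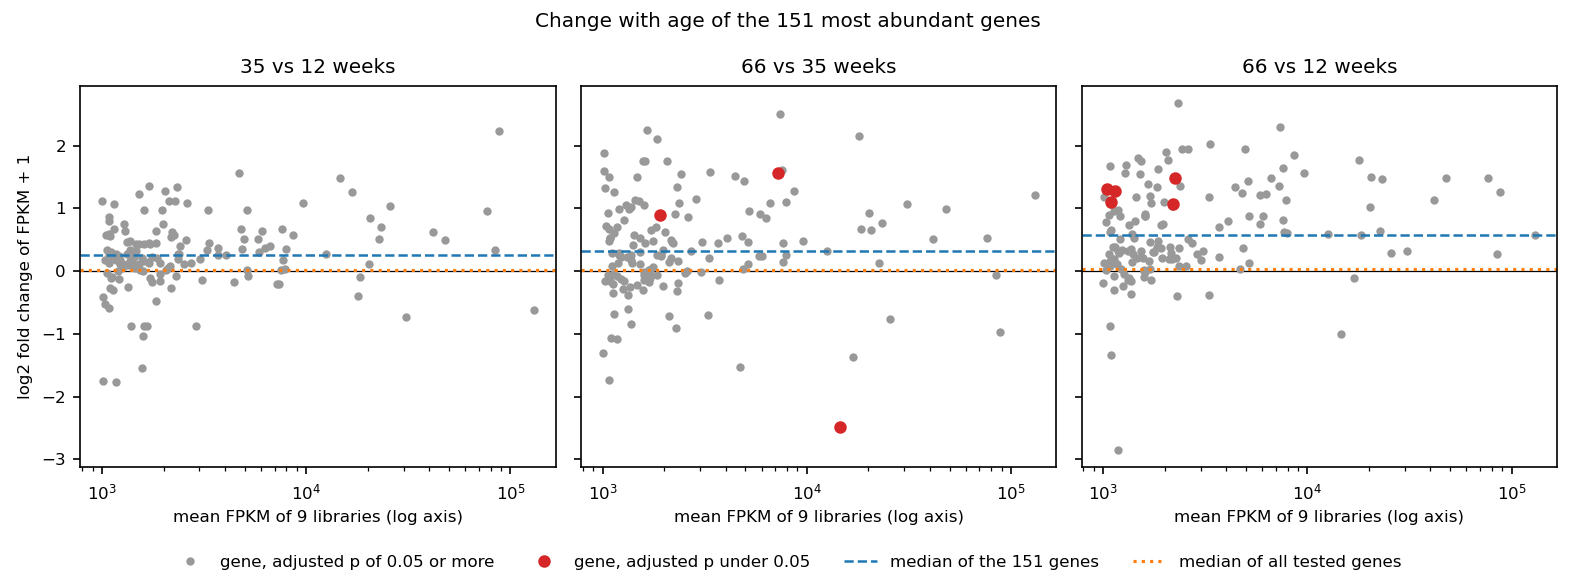
Log2 fold change of FPKM + 1 of each of the 151 genes against its mean FPKM over 9 libraries (log axis), for 3 comparisons of ages; red points had an adjusted p under 0.05 (limma), and lines mark the median of the 151 genes and of all tested genes. The median of the 151 lies above that of all tested genes in each panel, by 0.55 for 66 against 12 weeks.

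The size and sign of this shift depended on how libraries were scaled to one another, a step that no source here describes. Summed over all genes, FPKM came to 1312370 ± 135997 at 12, 1606170 ± 107047 at 35 and 1972450 ± 149720 at 66 weeks (SD, n = 3 each). With each library rescaled to a sum of 1000000, the median of all tested genes moved to -0.23, -0.23 and -0.48 in the 3 comparisons, and that of the 151 genes to -0.04, 0.02 and -0.01. The 151 genes themselves made up 57.6% to 65.8% of that sum by the means of the ages. A rise of these genes as a class would thus be in part taken out by construction, and whether there was one was not tested. Relative to all tested genes, the 151 were then higher by 0.19, 0.25 and 0.47, against 0.23, 0.30 and 0.55 as deposited. Under that rescaling 9 of the 151 (5.96%) were called higher and 6 (3.97%) lower at 66 than at 12 weeks, in place of 5 and 0, against 0.557% and 29.4% of all tested genes, and 3 of the 5 genes were still called. At 66 against 35 weeks it was 0 higher and 1 lower, in place of 2 and 1, against 0.383% and 3.39% of all tested genes. With median-ratio scaling the median of the 151 stayed positive in the 3 comparisons, at 0.22, 0.32 and 0.55. It was 0.18, 0.11 and 0.30 with an equal sum over all genes outside the 151, a scaling chosen after seeing the data. Quantile normalization gives every library the same distribution. The median of the 151 was then 0.002, -0.09 and -0.14. Relative to all tested genes, the 151 stood at 0.03, -0.12 and -0.13 under it, so the sign turned in the comparisons with 66 weeks.

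The value read as that of a single fragment differed between ages in some classes of genes. The classes were set by the smallest value of a gene above 0. Whether that value was 1 fragment is not known. In 122 genes the smallest value was 1 to 3 FPKM, and the log2 shift was taken relative to genes at 0.06 to 0.12 FPKM. It was -0.16 ± 0.03, 0.007 ± 0.058 and 0.15 ± 0.08 in the 12-week, 35-week and 66-week libraries (SD, n = 3 each). No 12-week library overlapped with a 66-week library. In the classes with still larger values the 12-week and 66-week libraries overlapped: the shift was -0.154 to -0.02 at 12 and -0.04 to 0.273 at 66 weeks in 49 genes at 3 to 10 FPKM, and -0.211 to -0.005 and -0.179 to 0.266 in 76 genes at 10 to 100 FPKM. Model lengths are not given for the 151 genes, and the part of this shift in their change with age was not tested.

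The spread between birds of 1 age is given for comparison with genes of middle level. The median SD of log2(FPKM + 1) within an age was 0.31, 0.31 and 0.25 for the 151 genes at 12, 35 and 66 weeks. Among genes above 0 in every library, it was 0.31, 0.23 and 0.22 in the 973 genes of 100 to 1000 FPKM. In the 6258 genes of 10 to 100 FPKM it was 0.23, 0.18 and 0.18. A spread as wide at 12 weeks was thus also seen in the class next below the 151.

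The genes that set 12-week replicate 3 apart were also compared between the later ages. Their distance from the other 12-week libraries did not use the later ages. The rule for the most abundant genes did, since it took the mean over all libraries. A gene low in that bird could thus reach the mean through a later age, so this comparison is not independent of the choice and is given as a description. Of the 19 genes low in that bird, 15 had all 66-week libraries above all 35-week libraries and 0 had them below, and the median of the log2 fold change was 1.58. In 14 of the 19, 35-week replicate 1 was the highest of the 35-week birds. Of the 6 genes high in that bird, 0 had the 66-week libraries above and 4 had them below the 35-week libraries, and the median was -1.12. Among the other 126 genes these counts were 38 above and 6 below, with a median of 0.26. Of all tested genes, 18.0% had the 66-week libraries above and 18.9% had them below. Genes outside the 151 that were low or high in that bird were not examined. The sets were chosen after their values were seen, so no test is given.

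Near the bound of the rule, the 3 genes just inside had means of 1000.35, 1010.07 and 1012.77 FPKM, and the 3 just outside, above 0 in every library, had 978.5, 980.7 and 993.4 FPKM. Gene 151 ranged from 213 to 2296 FPKM over the libraries, and the gene just outside from 153 to 3423 FPKM. Of the 151 genes, 81 reached 1000 FPKM in every library, and 13 reached it by their mean at 1 age alone. A library held between 114 and 116 of the 151 at or above 1000 FPKM at 12 weeks, between 124 and 131 at 35 weeks, and between 137 and 141 at 66 weeks.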

How the data were processed

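Values were deposited by the authors as FPKM per gene and library, per the file headers, in 1 table of 9 libraries (3 birds at each of 3 ages). Cuffdiff, Cufflinks 2.1.1 and TopHat2 2.0.9 are named in the submitters' processing notes, with no role. Beyond the prefix ENSAPLG of the gene identifiers, nothing in the sources used here gives the build, the gene models or any scaling of libraries. Whether the gene models are those of the Muscovy duck was not checked. Columns were matched to birds by the labels. Since FPKM are not counts, the analysis used log2(FPKM + 1). Genes with a mean under 1 FPKM were left out, and 1 model over the 3 ages was fitted with limma 3.58.1 in R 4.3.3 (eBayes with trend, 6 residual degrees of freedom). All tests were two-sided, with Benjamini-Hochberg adjustment over the 11491 genes tested and a threshold of 0.05. Fold changes are later over earlier age on the log2(FPKM + 1) scale. Ranks and shares were computed over all 14814 genes with pandas 2.3.3 and numpy 2.4.6 in Python 3.11.15, and figures were drawn with matplotlib 3.10.9.

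The members, the rule for the genes described and the alternatives were chosen with earlier results of these data known. Described genes were the 10 highest, those called between 2 ages or with the largest fold changes among non-overlapping ages, those with the largest changes or smallest range of place, those with the largest SD within an age, and those next to the bound of 1000 FPKM. Genes 48, 68, 129 and 143, named where an alternative called them, were chosen after their values were seen. Gene lists and cell type markers could not be applied, since identifiers are not paired with names. For that reason 3 identifiers are printed and other genes carry their number. The relative value of 1 fragment was read from genes above 0 in 2 to 7 libraries, as the most frequent ratio between each pair of libraries. After those steps were taken out, 71.0% of 5215 low values lay within 0.1 of a whole multiple of the smallest value of the gene. The fit and this estimate were tested on simulated data.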

Additional observations from a re-analysis of the deposited data

How the results depend on the processing

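Calls of single genes at an adjusted p of 0.05 (limma) were the least stable results. The shares, and the number of genes among the highest at every age, moved little without 1 library. Both moved more with another bound of FPKM, and the shares also with the genes listed at 0 or without the highest gene. Such settings change the set of genes counted, so a larger or smaller share or count follows in part from the choice. What caused the other changes was not tested. Counts are of the 151 genes. Shares of all tested genes called are in parentheses. At 66 against 35 weeks, the 2 higher and 1 lower became 0 and 0 with no filter on low values (0.441% and 1.09%). They became 39 and 4 with library weights (10.4% and 11.2% of all tested genes), and 12 and 3 with only the 2 ages fitted (3.48% and 6.58%). The 2 higher became 0 with a sum of 1000000 (0.383%) and 5 with median-ratio scaling (1.1%). With quantile normalization the counts were 0 higher and 2 lower (1.11% and 2.75%). At 66 against 12 weeks, the 5 higher became 1 with no filter (0.175%) and 3 with median-ratio scaling (0.174%). With a sum of 1000000 they became 9, with 6 lower (0.557% and 29.4%). They became 0 with quantile normalization (0.0435%) and with only the 2 ages fitted (0.0435%). At 35 against 12 weeks, library weights gave 9 higher and 1 lower (2.86% and 1.24% of all tested genes). The 2 calls of the F test became 0 with quantile normalization (0.67%), 47 with library weights (18.7% of all tested genes) and 4 without the trend (0.635%). They became 5 where the mean had to reach 5 FPKM (1.37%) and 1 with no filter (0.588%). An equal sum over all genes outside the 151, chosen after seeing the data, left 0 higher at 66 weeks against 35 weeks (0.366%) and against 12 weeks (0.0087%). By the F test it left 0 (0.244%). Quantile normalization gives every library the same distribution, so a shift of the highest genes as a class is removed by construction. The median log2 fold change of the 151 for 66 against 12 weeks was then -0.14, below the -0.01 of all tested genes. Why it fell below was not tested.

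Without 1 library at a time, the counts were 0 to 4 higher and 0 to 2 lower at 35 against 12 weeks, 0 to 17 and 0 to 3 at 66 against 35 weeks, 0 to 2 and 0 at 66 against 12 weeks, and 0 to 23 by the F test. Adding the replicate number to the fit as a block, the 5 higher at 66 than at 12 weeks became 0 and the F test gave 0, against 0.0087% and 0.0174% of all tested genes. At 66 against 35 weeks that fit gave 2 higher (genes 48 and 143, with genes 26 and 73 lost at limma adjusted p 0.0541 and 0.0792) and 1 lower (gene 16), against 0.374% and 1.17%. No label pairs the birds by that number. Deviations of libraries with the same number correlated at -0.0939 to 0.215 over 9 pairs, 2 of them above 0.1. Libraries with different numbers were not compared, so whether the number stands for a shared factor was not tested.

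Over 21 alternatives each, gene 16 passed in 14 (adjusted p 0.00329 to 0.112), genes 26 and 73 in 9 each, gene 146 in 9, genes 60 and 128 in 7 each, and genes 136 and 61 in 5 each, all with the sign given above. The change of gene 111 at 35 against 12 weeks reversed to -0.0229 with a sum of 1000000.

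The share of the 151 at 12, 35 and 66 weeks was 63.8%, 68.9% and 72.5% with the 35 genes listed at 0 in some library, 50.03%, 56.7% and 58.8% for the 68 genes of at least 2000 FPKM, and 62.7%, 68.3% and 70.1% for the 256 of at least 500 FPKM. Without the highest gene it was 53.1% at 12 weeks and 62.4% at 66 weeks. Without 1 library it ranged from 56.98% to 59.3%, 61.3% to 65.2% and 64.4% to 67.2%. The 95 genes among the highest at every age ranged from 93 to 100 without 1 library, and were 42 of 68 and 177 of 256 with bounds of 2000 and 500 FPKM. With 3 birds per age and no fragment counts, precision rests on the spread between birds.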

Other observations

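Of the 186 genes whose mean reached 1000 FPKM, 35 were listed at 0 in at least 1 library and stand outside the comparisons above. In 15 of them 1 library alone was above 0, a 12-week library in 5, a 35-week library in 4 and a 66-week library in 6. In 26 of the 35 the smallest value above 0 was over 1000 FPKM. Together they held 1.97% to 10.7% of the summed FPKM of a library, the highest share in 35-week replicate 1 and the lowest in 35-week replicate 2.

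Genes 14 and 75 carry identifiers that differ by 1 in their number, and their FPKM values ran in parallel. The ratio of gene 14 to gene 75 was 8.06 to 10.9 over the 9 libraries, with a median of 9.43, while gene 14 itself ran from 4546 to 46615 FPKM. The pair was noticed after the values were seen, and whether the 2 gene models share sequence or reads was not tested.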
